A study of Mus musculus with 9 samples.

Results

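RNA levels of 43 genes that copy and divide the genome were followed in 3 related kinds of cultured mouse stem cell. The 43 genes were taken by name from a count table of 54532 Ensembl genes, and 43 of 43 passed the filter on low counts that left 16178 genes to test. By role they were 11 licensing genes, 9 replication fork genes, 4 nucleotide enzymes, 4 transcription factors, 8 genes of mitotic entry, 4 spindle checkpoint genes and 3 genes of chromosome structure. The cells came from Sv129 x GOF/GFP F1 mouse embryos and grew on fibronectin-coated plates in DMEM/F12 with N2, B27 and Activin A. ABSC, described in the labels as resembling trophoblast stem cells, were made from AFSC by repeated passage with BMP4 in place of bFGF and were collected at passage 25 to 30. ALSC were made from AFSC in the same way and collected at passage 20 to 25. ALSC are taken here to have received leukaemia inhibitory factor (LIF), although the protocol attaches this recipe to the name of the other medium. AFSC, which resemble epiblast stem cells, were derived from blastocysts with Activin A and bFGF and collected at passage 15 to 20. Each cell type gave 3 libraries, and nothing in the labels says that these were separate cultures, so p-values measure the spread between these libraries alone. Passage number and cell type cannot be told apart, and 1 RNA kit is named for ALSC beside another for all cells.

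Before a cell copies its DNA, the origin recognition complex, Cdc6 and Cdt1 load the ring-shaped MCM helicase onto chromatin, a step called licensing that geminin (Gmnn) blocks once copying has begun. Cdc45 and the GINS complex turn the loaded helicase on, PCNA and its loader RFC tether the polymerases, and E2F factors switch many of these genes on as cells enter S phase. Later, cyclin B with Cdk1 starts mitosis, and Cdc20 with the anaphase-promoting complex ends it once the spindle checkpoint is satisfied. Pluripotent stem cells are known for fast division and abundant replication proteins.

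The libraries held 18978651 to 21578737 counts in Ensembl genes. Levels are given in CPM, the scaled count relative to library size, computed with TMM factors. Of 7 markers of pluripotent and epiblast cells, 2 were called higher and 3 lower in ABSC against AFSC by edgeR. Pou5f1 averaged 1226 ± 42.4 CPM in ABSC, 935 ± 30.6 CPM in ALSC and 1074 ± 42.5 CPM in AFSC (SD, n = 3 each), and Nanog was the other called higher. Fgf5, a marker of epiblast, averaged 16.3 ± 2.52 CPM in ABSC, 147 ± 24.3 CPM in ALSC and 189 ± 4.76 CPM in AFSC, and Sox2 and Otx2 were the others called lower in ABSC. For ALSC against AFSC, Nanog was called higher and Pou5f1 and Sox2 lower. Of 7 trophoblast stem cell markers, Hand1 averaged 213 CPM in ABSC, 2.08 CPM in ALSC and 0.240 CPM in AFSC, while Elf5 and Gata3 averaged under 1 CPM in each cell type. Cdx2 averaged 4.45 ± 3.13 CPM in ABSC, 0.0858 ± 0.0781 CPM in ALSC and 0.126 ± 0.118 CPM in AFSC. Hand1 and Cdx2 were the 2 markers called higher in ABSC against both of the others. Not all of the 5 markers tested went that way, as the lowest log2 fold change in ABSC against ALSC was -1.12. None was called lower there, but 1 was with a term for library number, described below. Hand1 and Tfap2c were called higher in ALSC against AFSC, and Eomes and Esrrb were called in no comparison. The 10 fibroblast markers listed summed to 27.6 to 39.4 CPM in ABSC, 33.2 to 49.0 CPM in ALSC and 35.3 to 38.7 CPM in AFSC, with Dcn, Lum and Postn too low to test. The libraries are numbered 1 to 3 within each cell type. Those numbered 1 stood apart from the other libraries, with a chi-square per degree of freedom of 12.3 to 25.3 against numbers 2 and 3 of their own cell type, and of 2.08 to 4.11 between numbers 2 and 3. What the number stands for is not given, and counts of calls among members and pathway lists are therefore given both with and without a term for it.

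Promoter sequences are shown for 4 members on which the results turn. Mcm6 was higher in both ABSC and ALSC than in AFSC, Mycn had the largest difference between library numbers, and Ccnb2 and Top2a were the mitotic members called higher in ALSC than in AFSC. The windows are from RefSeq on GRCm38.p6, run from 250 bases before to 50 bases after the annotated start, and read 5′ to 3′ on the minus strand, the gene's own strand. Capitals mark E2F words (TTTCCCGC, TTTGGCGC, TTTCGCGC or TTTGCCGC), words of the cell cycle homology region or CHR (TTTGAA or TTTAAA) and the CCAAT box, all on either strand, and neighbouring words may overlap.
Mcm6 promoter (chr1:128359656-128359955, minus strand): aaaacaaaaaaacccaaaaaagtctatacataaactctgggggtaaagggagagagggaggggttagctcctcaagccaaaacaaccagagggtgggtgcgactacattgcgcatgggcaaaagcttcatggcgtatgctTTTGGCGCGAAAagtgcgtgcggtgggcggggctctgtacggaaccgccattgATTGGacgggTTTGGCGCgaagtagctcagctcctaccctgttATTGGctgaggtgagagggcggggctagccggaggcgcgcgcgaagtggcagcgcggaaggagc
Mycn promoter (chr12:12941787-12942086, minus strand): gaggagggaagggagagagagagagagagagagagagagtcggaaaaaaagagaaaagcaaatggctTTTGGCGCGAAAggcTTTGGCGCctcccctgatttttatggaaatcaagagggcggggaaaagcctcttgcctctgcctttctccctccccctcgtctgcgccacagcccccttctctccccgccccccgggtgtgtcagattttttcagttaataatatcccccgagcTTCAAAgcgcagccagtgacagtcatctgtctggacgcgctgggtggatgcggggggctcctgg
Ccnb2 promoter (chr9:70421505-70421804, minus strand): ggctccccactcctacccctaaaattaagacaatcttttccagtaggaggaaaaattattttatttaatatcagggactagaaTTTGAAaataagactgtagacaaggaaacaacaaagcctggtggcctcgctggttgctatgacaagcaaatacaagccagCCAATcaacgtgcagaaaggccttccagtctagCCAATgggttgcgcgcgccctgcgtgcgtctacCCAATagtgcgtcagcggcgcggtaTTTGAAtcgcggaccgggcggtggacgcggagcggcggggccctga
Top2a promoter (chr11:99024140-99024439, minus strand): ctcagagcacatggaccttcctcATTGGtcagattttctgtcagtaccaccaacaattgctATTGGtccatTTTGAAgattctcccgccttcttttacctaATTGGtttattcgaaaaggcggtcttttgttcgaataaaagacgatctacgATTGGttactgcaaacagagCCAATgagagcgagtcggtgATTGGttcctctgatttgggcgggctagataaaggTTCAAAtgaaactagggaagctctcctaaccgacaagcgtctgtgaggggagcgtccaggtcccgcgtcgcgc

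The Mcm6 window held 3 E2F words, which began 110, 106 and 47 bases before the start, and 2 CCAAT boxes. The first of these E2F words overlapped the next. The Mycn window also held 3 E2F words, 183, 179 and 168 bases before the start, and 1 CHR word. The Ccnb2 window had no E2F word and held 3 CCAAT boxes, 87, 54 and 21 bases before the start. It also held 2 CHR words, 167 bases before the start and 4 bases after it. The Top2a window had no E2F word and held 6 CCAAT boxes and 2 CHR words, the latter 179 and 23 bases before the start. Of the 43 members, 34 were matched to 35 windows. E2F words stood in 12 of 35 member windows, or 34.29%, against 2.265% of all 32851 windows. Among replication and nucleotide members the E2F share was 45.0% of 20 windows, and among mitotic members it was 15.38% of 13. CHR words ran the other way, in 25.0% of the replication and nucleotide windows and 76.92% of the mitotic windows, against 27.59% of all windows. The CCAAT box was in 74.29% of member windows and 37.41% of all windows. These are matches of letters in a window and not evidence that a factor binds there.

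The members together held between 0.939% and 1.05% of all counts in a library. Per kilobase of gene length, which allows levels to be compared between genes, the median member stood at 40.4 CPM per kb and the median of all genes tested at 4.18 CPM per kb. Cdc20, the activator of the anaphase-promoting complex, was the highest at 248 CPM per kb averaged over 9 libraries. Pcna, the sliding clamp of the fork, followed at 192 CPM per kb, and the MCM subunits Mcm3 and Mcm5 at 131 and 128 CPM per kb. E2f1 stood at 12.7 CPM per kb and Pola1, the catalytic subunit of DNA polymerase alpha, at 8.79 CPM per kb, the lowest of the members. The proliferation mark Mki67 was at 466, 494 and 501 CPM in ABSC, 609, 556 and 530 CPM in ALSC, and 466, 521 and 520 CPM in AFSC. Each ALSC value of Mki67 stood above every other library, although its log2 fold change of 0.17 ± 0.07 in ALSC against AFSC missed the threshold (edgeR adjusted p = 0.177). The lowest value of any member in any library was 32.8 CPM, for the GINS subunit Gins1 in ALSC 1. In bulk RNA, fewer cells in a phase of the cycle and less of an RNA per cell cannot be told apart.

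**Figure D1:**
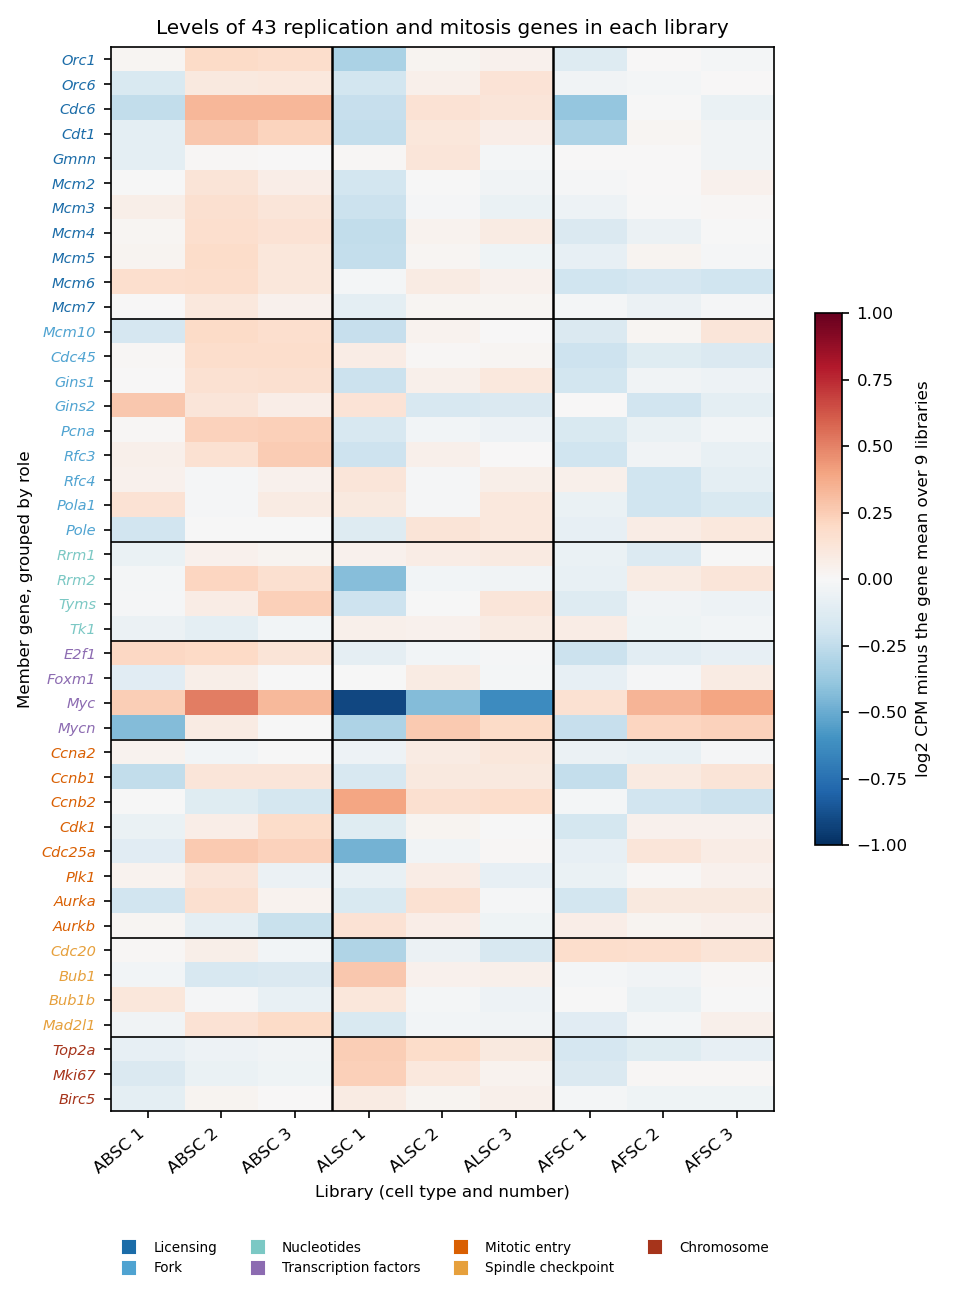
Level of each of the 43 members (down the page, grouped by role) in each of the 9 libraries (across), as log2 CPM minus the gene's mean over the 9 libraries. Myc is the gene with the deepest colours, low in the 3 ALSC libraries, and library 1 is the lowest of its cell type for Cdc6, Mycn and Ccnb1.

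In ABSC against AFSC, 3 of 43 members rose and 0 fell. They were Mcm6, a subunit of the helicase ring, Cdc45, which joins the ring at the fork, and E2f1, an activator of S-phase genes. Over all genes tested 3.98% rose and 7.98% changed in either direction, and 3 of 43 is not far from those shares. At an unadjusted p under 0.05, 7 members were higher and 1 was lower, where 20.3% of all genes changed in either direction and 10.3% were lower. DESeq2 called 5 members higher and 0 lower, adding Pcna and Pola1, where it called 5.51% of all genes higher and 5.23% lower. All 43 intervals of the fold change lay within 2-fold either way.

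Mcm6 (ENSMUSG00000026355, chr1:128331590-128359664, minus strand, GRCm38) had 381, 384 and 368 CPM in ABSC, 336, 360 and 350 CPM in ALSC, and 296, 303 and 297 CPM in AFSC. The 3 cell types did not overlap in this gene, with ABSC highest and AFSC lowest. Mcm6 was 26.5% higher in ABSC than in AFSC, a log2 fold change of 0.34 ± 0.05 (SE; edgeR adjusted p = 0.00211). The call held under all 17 settings tried, at 0.32 to 0.36. No other MCM subunit passed in this comparison, and Mcm2, Mcm3, Mcm4, Mcm5 and Mcm7 had log2 fold changes of 0.06, 0.13, 0.18, 0.13 and 0.08. Over the 11 licensing genes the median was 0.13, in a range of -0.02 to 0.34, and Gmnn, the inhibitor of licensing, was the 1 below 0.

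E2f1 (ENSMUSG00000027490, chr2:154559407-154569892, minus strand) had 46.1, 45.9 and 43.7 CPM in ABSC, 37.4, 39.2 and 39.5 CPM in ALSC, and 34.3, 37.1 and 37.6 CPM in AFSC. All 3 ABSC values stood above every other library, and ALSC and AFSC overlapped. E2f1 rose by 24.4% in ABSC against AFSC, a log2 fold change of 0.32 ± 0.07 (edgeR adjusted p = 0.0244). The call was lost with no filter on low counts and when ABSC 2, ABSC 3 or any AFSC library was left out, and the change was 0.28 to 0.34 over single left-out libraries. Its adjusted p was at most 0.103 over the settings tried. Foxm1, a transcription factor that activates mitotic genes, was at -0.02 ± 0.07 against AFSC.

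Cdc45 (ENSMUSG00000000028, chr16:18780447-18811987, minus strand) had 46.1, 51.8 and 51.7 CPM in ABSC, 48.3, 46.2 and 46.4 CPM in ALSC, and 39.7, 42.0 and 41.4 CPM in AFSC. ABSC and AFSC did not overlap, and ABSC overlapped ALSC through ABSC 1. Cdc45 rose by 21.5% in ABSC against AFSC, a log2 fold change of 0.28 ± 0.07 (edgeR adjusted p = 0.0429). It lies near the threshold and was lost with library size alone, with no filter, with only these 2 groups fitted, and without ABSC 2, ABSC 3, ALSC 2, ALSC 3 or any AFSC library, and the change was 0.25 to 0.34 over single left-out libraries (adjusted p up to 0.175). Over the 9 fork genes the median was 0.21, in a range of -0.10 to 0.28, and Pole, the leading-strand polymerase, was the 1 below 0. Cdc45 overlaps Ufd1 on the other strand, and the libraries do not mark strand, so reads in the overlap cannot be assigned.

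Pcna had 464, 540 and 542 CPM in ABSC, 411, 450 and 443 CPM in ALSC, and 415, 439 and 452 CPM in AFSC. Each ABSC value stood above every other library. Its log2 fold change of 0.24 ± 0.07 in ABSC against AFSC missed the threshold (edgeR adjusted p = 0.0679) and passed with a term for library number (adjusted p = 0.00154). Against ALSC the change was also 0.24 ± 0.07 (edgeR adjusted p = 0.0532, and 0.00119 with the term).

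With a term for library number, 11 members were called higher and 1 lower in ABSC against AFSC, where 9.58% of all genes tested were higher and 9.78% lower. Without the 3 libraries numbered 1, which leaves 2 libraries a group, 18 were called higher and 4 lower, where 14.5% of all genes were higher and 13.9% lower. The 11 called with the term were Mcm6, Mcm4, Cdc6, Cdt1, Cdc45, Gins2, Pcna, Rfc3, Pola1, Tyms and E2f1. Of these, 10 license origins, work at the fork or make nucleotides, and E2f1 is a transcription factor. The 1 called lower was Mycn, a MYC family factor that averaged 106 CPM per kb over 9 libraries beside 34.2 CPM per kb for Myc. Mycn had 254, 364 and 341 CPM in ABSC, 278, 412 and 391 CPM in ALSC, and 292, 398 and 403 CPM in AFSC. Library 1 was the lowest of its cell type in each case and the cell types overlapped. The log2 fold change was -0.19 ± 0.18 without the term (edgeR adjusted p = 0.664) and -0.19 with it (adjusted p = 0.00832). Among replication and nucleotide members 21 of 24 lay above 0, with a median log2 fold change of 0.15, and among mitotic members 10 of 15 did, with a median of 0.03. The median of all genes tested was -0.00. The groups did not overlap in 13 members that were higher and 2 that were lower in ABSC, where 13.9% and 13.5% of all genes did so.

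**Figure D2:**
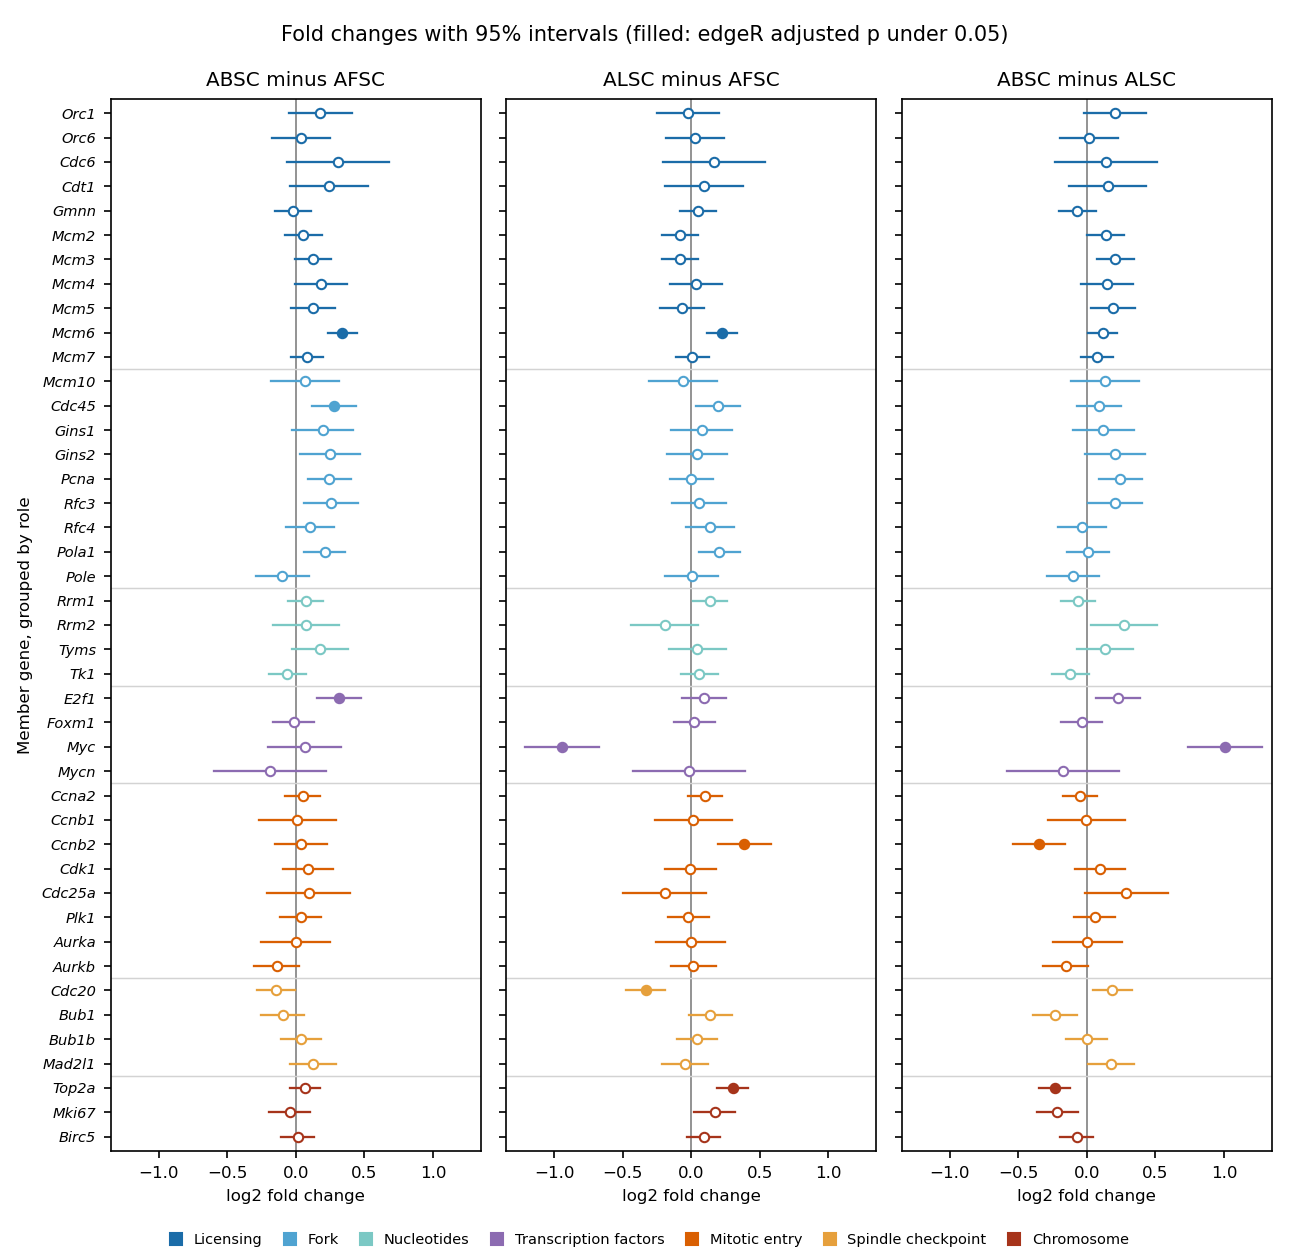
Log2 fold change of each member (points) with its 95% interval (lines) for ABSC minus AFSC, ALSC minus AFSC and ABSC minus ALSC. Filled points are edgeR adjusted p under 0.05, and Myc stands at -0.94 in ALSC minus AFSC and 1.01 in ABSC minus ALSC.

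In ALSC against AFSC, 3 members rose and 2 fell. The risers were Ccnb2, a B-type cyclin, Top2a, the topoisomerase that untangles sister chromosomes, and Mcm6. Those that fell were Myc, the growth-linked transcription factor, and Cdc20. Over all genes tested 3.54% rose and 3.50% fell. At an unadjusted p under 0.05, 7 members were higher and 2 lower, where 11.2% of all genes were higher and 10.4% lower. DESeq2 called 3 members higher and 2 lower, where it called 5.29% of all genes higher and 5.26% lower. ABSC and ALSC were compared with the same 3 AFSC libraries, so the values of both comparisons are not independent.

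Myc (ENSMUSG00000022346, chr15:61985391-61990374, plus strand) had 105, 126 and 110 CPM in ABSC, 47.1, 65.3 and 57.2 CPM in ALSC, and 98.4, 112 and 116 CPM in AFSC. All 3 ALSC values were far below the other libraries, and ABSC overlapped AFSC. Myc fell to 56.5 ± 9.10 CPM in ALSC, against 109 ± 9.24 CPM in AFSC, 48.1% lower. The log2 fold change was -0.94 ± 0.12 (edgeR adjusted p = 0.00217) and the call held under all 17 settings, at -1.07 to -0.83. Against AFSC, the change of Myc in ABSC was 0.06 ± 0.12 with an interval of -0.20 to 0.33.

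Top2a (ENSMUSG00000020914, chr11:98992943-99024189, minus strand) had 1045, 1069 and 1078 CPM in ABSC, 1313, 1254 and 1186 CPM in ALSC, and 982, 1018 and 1047 CPM in AFSC. ALSC stood above every other library. Top2a rose by 23.2% in ALSC against AFSC, a log2 fold change of 0.30 ± 0.05 (edgeR adjusted p = 0.00787). Without AFSC 2 the adjusted p was 0.0510, and the change over single left-out libraries was 0.26 to 0.34.

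Ccnb2 (ENSMUSG00000032218, chr9:70407692-70421547, minus strand) had 110, 102 and 97.7 CPM in ABSC, 146, 123 and 125 CPM in ALSC, and 109, 96.7 and 95.3 CPM in AFSC. ALSC did not overlap either of the others. Ccnb2 rose by 30.8% in ALSC against AFSC, a log2 fold change of 0.39 ± 0.09 (edgeR adjusted p = 0.0249). The call was lost without AFSC 2 or AFSC 3, and the change was 0.30 to 0.45 over single left-out libraries (adjusted p up to 0.121). The other B-type cyclin, Ccnb1, gave 394, 509 and 508 CPM in ABSC, 417, 500 and 499 CPM in ALSC, and 395, 496 and 509 CPM in AFSC. Its log2 fold change against AFSC was 0.01 ± 0.13 in ABSC and 0.02 ± 0.13 in ALSC. Its partner kinase Cdk1 gave 189, 208 and 225 CPM in ABSC, 182, 201 and 198 CPM in ALSC, and 176, 204 and 205 CPM in AFSC. Each value of Ccnb1 and Cdk1 in library 1 was the lowest of its cell type.

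Cdc20 (ENSMUSG00000006398, chr4:118432901-118437352, minus strand) had 463, 480 and 452 CPM in ABSC, 373, 441 and 412 CPM in ALSC, and 521, 518 and 504 CPM in AFSC. No library of one cell type overlapped another, with AFSC highest and ALSC lowest. Cdc20 fell by 20.6% in ALSC against AFSC, a log2 fold change of -0.33 ± 0.06 (edgeR adjusted p = 0.0135). The call was lost without AFSC 2 or AFSC 3, at -0.40 to -0.27 over single left-out libraries (adjusted p up to 0.0704). In ABSC against AFSC it was at -0.15 ± 0.06 (edgeR adjusted p = 0.229). Cdc20 overlaps Elovl1 on the other strand.

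Mcm6 was 16.8% higher in ALSC than in AFSC, a log2 fold change of 0.22 ± 0.05 (edgeR adjusted p = 0.0223). This call was lost with no filter, with only these 2 groups fitted, and without ABSC 2, ALSC 2, ALSC 3 or any AFSC library, and the change was 0.20 to 0.25 over single left-out libraries (adjusted p up to 0.118). With the term for library number, 6 members were called higher and 4 lower in ALSC against AFSC, where 11.1% of all genes were higher and 11.1% lower. Without the 3 libraries numbered 1, 7 were called higher and 3 lower, where 12.0% of all genes were higher and 13.4% lower. The 6 called with the term added Cdc6, Cdc45 and Pola1 to the 3 above, and the 4 added Rrm2, a subunit of ribonucleotide reductase, and Cdc25a, a phosphatase that activates Cdk1, to Myc and Cdc20. Among replication and nucleotide members 17 of 24 lay above 0, with a median of 0.04, and among mitotic members 9 of 15 did, with a median of 0.02. Of all 16178 genes tested, 8147 lay above 0. The count over all 43 members moved with the processing, from 28 above 0 to 34 with library size alone and 21 without ALSC 2. The 3 chromosome genes, Top2a, Mki67 and the survivin gene Birc5, were at 0.09 to 0.30, and the 11 licensing genes at -0.08 to 0.22. Groups did not overlap in 9 members that were higher and 2 that were lower, against a background of 14.7% and 13.8% of all genes.

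**Figure D3:**
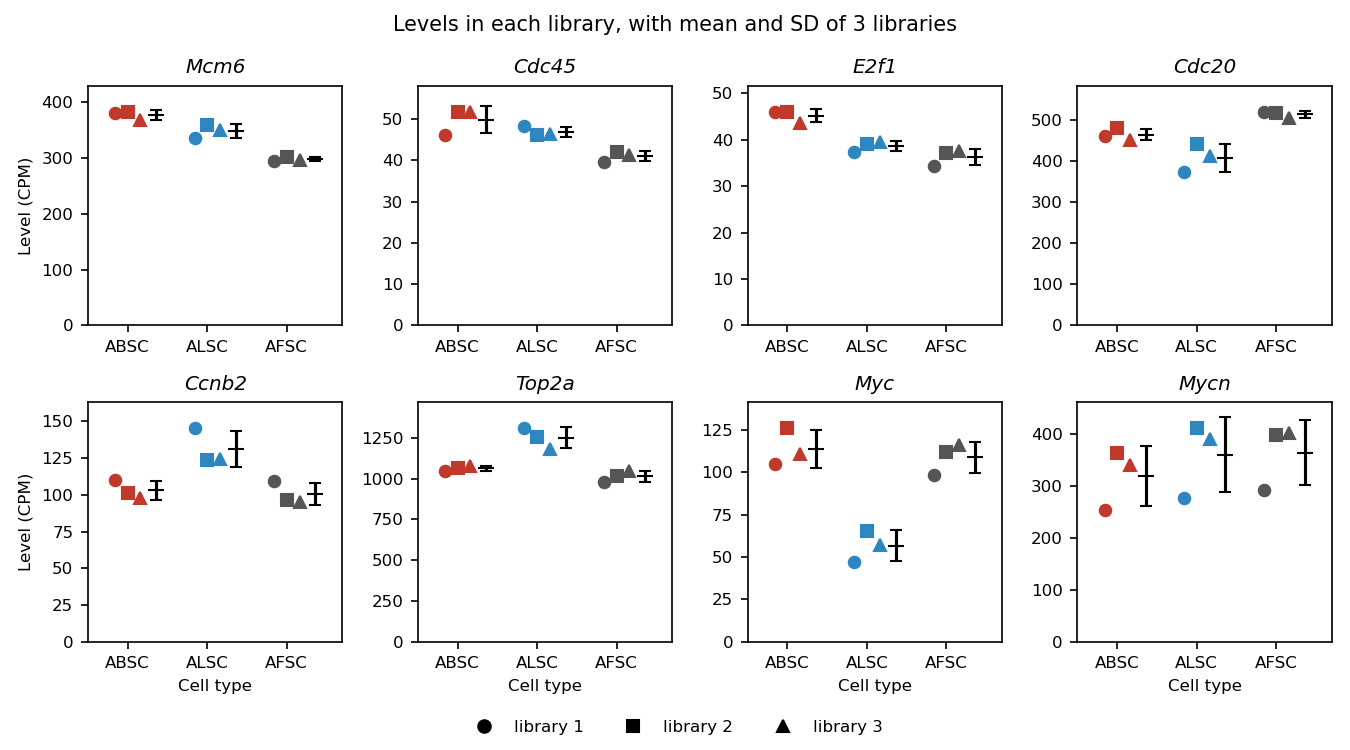
Level in CPM of 8 members in each library (circles, squares and triangles are libraries 1, 2 and 3) with the mean and SD of each cell type in black. Myc is low in ALSC, Top2a and Ccnb2 are high there, and Mcm6 is lowest in AFSC.

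In ABSC against ALSC, 1 member rose and 2 fell, where 5.41% of all genes rose and 5.56% fell. At an unadjusted p under 0.05, 11 members were higher and 4 lower, where 12.5% of all genes were higher and 13.4% lower. DESeq2 called 4 members higher and 3 lower, where it called 7.46% of all genes higher and 7.05% lower. Groups did not overlap in 9 members that were higher and 6 that were lower in ABSC, where 13.9% and 15.1% of all genes did so. Myc was higher in ABSC, by a log2 fold change of 1.01 ± 0.12 (edgeR adjusted p = 0.000724), 2.01-fold, with values held under all 17 settings at 0.90 to 1.13. Ccnb2 was 21.5% lower in ABSC than in ALSC, at -0.35 ± 0.09 (edgeR adjusted p = 0.0285), and Top2a was 14.9% lower, at -0.23 ± 0.05 (edgeR adjusted p = 0.0163). The Ccnb2 call was lost without ABSC 2, ABSC 3, ALSC 1 or AFSC 2, and the Top2a call without ABSC 2, ABSC 3 or ALSC 2. The changes over single left-out libraries were -0.39 to -0.26 for Ccnb2 and -0.27 to -0.19 for Top2a. Both were lost when AFSC was left out of the fit. Mki67 had a log2 fold change of -0.21 ± 0.07 (edgeR adjusted p = 0.0707), with each ABSC value below each ALSC value.

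With the term for library number, 15 members were called higher and 6 lower in ABSC against ALSC, where 14.2% of all genes were higher and 14.3% lower. Without the 3 libraries numbered 1, 17 were called higher and 6 lower, where 16.8% of all genes were higher and 15.4% lower. The 15 called with the term were Orc1, Cdt1, Mcm2, Mcm3, Mcm4, Mcm5, Gins2, Pcna, Rfc3, Rrm2, E2f1, Myc, Cdc25a, Cdc20 and Mad2l1. The 6 were Mycn, Ccnb2, Aurkb, a kinase that corrects chromosome attachment, Bub1, a checkpoint kinase, Top2a and Mki67. Of the 24 replication and nucleotide members, 10 were called higher and 0 lower with the term. Of the mitotic members, 3 were called higher and 5 lower. Summed CPM of the 11 licensing genes was 3083 to 3401 in ABSC, 2706 to 3114 in ALSC and 2864 to 3003 in AFSC, and that of the 3 chromosome genes was 1637 to 1714 in ABSC, 1855 to 2065 in ALSC and 1580 to 1697 in AFSC. The chromosome genes of ALSC did not overlap either of the others in summed level, and Top2a had the highest level per kb of the 3. The scaling of libraries mattered for the sign of some small changes here. With the scaling used throughout, TMM, 27 members lay above 0, against 23 with library size alone, which moved the median of all genes by -0.07 on the log2 scale.

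Among the 3 cell types together, 6 of 43 members differed by an F test on both contrasts, and 14.8% of all genes did. With the term for library number 23 of 43 members differed, and 37.0% of all genes did.

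Many members differed with library number as well as with cell type. In the fit that holds both terms, 21 of 43 members differed among the 3 library numbers by an F test, and 25.4% of all genes tested did. Of these, 19 were lower in library 1 than in libraries 2 and 3, where 12.0% of all genes were called and lower, and 2, Ccnb2 and Gins2, were higher, where 13.4% were called and higher. Library 1 was the lowest of its 3 libraries in all 3 cell types for 22 of 43 members, and for 20.2% of all genes. It was the highest in all 3 for 4 members, and for 21.5% of all genes.

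Mycn was the member that differed most, at 28.0%, 30.9% and 27.1% lower in library 1 than in libraries 2 and 3 of ABSC, ALSC and AFSC (log2 difference -0.49, edgeR F test adjusted p = 4.66e-06). Each adjusted p given here for library number is that of the F test among the 3 numbers. The log2 difference of library 1 from libraries 2 and 3 has no p-value of its own. Cdc6, which loads the helicase, had 79.1, 118 and 118 CPM in ABSC, 79.9, 104 and 102 CPM in ALSC, and 71.6, 93.5 and 89.3 CPM in AFSC. Its log2 difference was -0.43 (edgeR adjusted p = 9.30e-05). Ccnb1 and Cdt1, the licensing factor that geminin inhibits, had log2 differences of -0.33 each (edgeR adjusted p = 0.000129 and 0.000165). Cdc6 and Cdt1 were chosen for mention after their values were seen. Of the 7 members called between cell types, Myc and Ccnb2 also differed with library number, by -0.25 and 0.19 on the log2 scale (edgeR adjusted p = 0.00669 and 0.0110). Mcm6, Top2a, E2f1, Cdc45 and Cdc20 had log2 differences of -0.03, -0.00, -0.05, -0.06 and -0.06 and did not pass the F test. For 15 of 43 members the difference with library number was larger than any difference between cell types. The share of all genes of which this is true was not computed, so the count is not read as particular to the members. The number of members called for library number was 12 to 22 when single libraries were left out, where 15.4% to 27.5% of all genes were called. It was 18 by DESeq2, which called 23.7% of the 14296 genes it gave an adjusted p. It was 16 with library size alone, which called 26.4% of all genes. With library size alone 11 of the 16 were lower and 5 higher in library 1. Their cause was not tested.

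**Figure D4:**
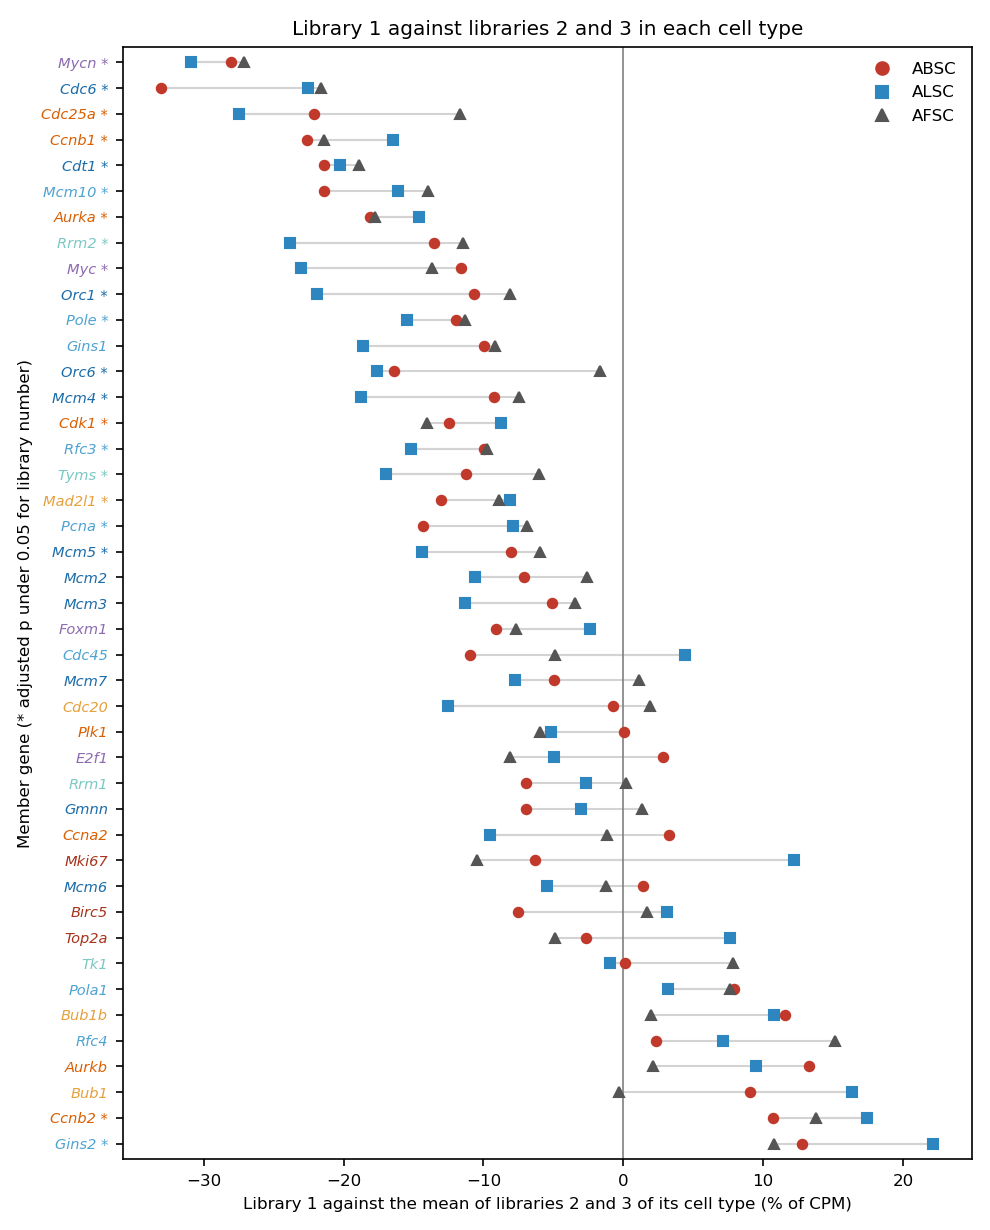
Difference of library 1 from the mean of libraries 2 and 3 of its own cell type, as a percentage of CPM, for each member in ABSC (circles), ALSC (squares) and AFSC (triangles). Stars mark edgeR adjusted p under 0.05 for library number, and most members lie left of 0, with Mycn and Cdc6 farthest left.

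Other genes of the same pathways, listed for this purpose, changed in small numbers. Of 45 other replication genes 3 rose and 0 fell in ABSC against AFSC, among them Orc2, an origin recognition subunit, whose ABSC mean was 83.6 ± 4.14 CPM against 61.8 ± 4.63 CPM for AFSC (0.44 on the log2 scale, edgeR adjusted p = 0.0141), and Lig1, the ligase that joins replicated fragments (0.33, adjusted p = 0.0361). Uhrf1, which couples DNA methylation to replication, was the third (0.35, adjusted p = 0.00732). In ALSC against AFSC, edgeR called 0 of those 45 in either direction, with 7 higher and 0 lower at an unadjusted p under 0.05 and 2 higher by DESeq2. In ABSC against ALSC 3 rose, Orc2, Pole4 and Lig1. Of 22 other nucleotide genes, 1 rose in ABSC against AFSC, the purine enzyme Paics (0.22, adjusted p = 0.0162). In ALSC against AFSC, 1 rose and 1 fell, Tk2 (0.41) and Cad (-0.26). In ABSC against ALSC, 3 rose, Dtymk, Atic and Paics, at 0.23, 0.44 and 0.19. With the term for library number, edgeR called 6 of the 45 replication genes higher and 1 lower in ABSC against AFSC, 6 and 0 in ALSC against AFSC, and 8 and 5 in ABSC against ALSC. Of the 22 nucleotide genes it called 5 higher and 1 lower, 2 and 4, and 8 and 0 in these comparisons. The shares of all genes called, with the term or without it, by DESeq2 or at an unadjusted p, are those given above for the members.

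Of 66 other mitosis genes tested, 2 rose and 2 fell in ABSC against AFSC: Pbk, a mitotic kinase (0.63, edgeR adjusted p = 0.00259), Pkmyt1, which restrains Cdk1 (0.33), Cdc25b, a phosphatase that activates Cdk1 (-0.52), and Ckap2 (-0.48). Over all genes tested 3.98% rose there and 7.98% changed in either direction. In ALSC against AFSC 3 rose, Cdc25c (0.39), Pbk (0.37) and Nusap1 (0.37), and 2 fell, Bub3 (-0.24) and Ccnf (-0.29), where 3.54% of all genes rose and 3.50% fell. In ABSC against ALSC 2 rose, Bub3 (0.26) and Pkmyt1 (0.34), and 2 fell, Cenpf (-0.33) and Cdc25b (-0.45), where 5.41% of all genes rose and 5.56% fell. Adding the term for library number, 4 of the 66 were called higher and 2 lower in ABSC against AFSC, 7 and 5 in ALSC against AFSC, and 7 and 10 in ABSC against ALSC. Of 18 regulators of E2F, edgeR called 0 in each of the 3 comparisons. With the term it called 2 higher and 2 lower in ABSC against AFSC, 3 and 2 in ALSC against AFSC, and 2 and 2 in ABSC against ALSC. At an unadjusted p under 0.05, 2 were higher and 2 lower in ABSC against AFSC, 1 and 1 in ALSC against AFSC, and 1 and 1 in ABSC against ALSC. DESeq2 called 0 higher and 1 lower, 1 higher and 1 lower, and 0 of either kind in these comparisons. Of 10 other genes of the MYC network, Mxd4, a repressor that competes with MYC, fell in ABSC against AFSC (-0.62, adjusted p = 0.00747) and against ALSC (-0.56), and Mycl rose in ALSC against AFSC (0.38). In ABSC against ALSC, Mycl fell (-0.35) and Max, the partner of MYC, rose (0.22). Adding the term, 1 of the 10 was called higher and 1 lower in ABSC against AFSC, 1 and 0 in ALSC against AFSC, and 3 and 2 in ABSC against ALSC. For the other tests of these lists, the shares of all genes called are those given above for the members.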

How the data were processed

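RNA was measured by poly-T selected, unstranded RNA-seq (NEBNext Ultra, per the labels' protocols) in 9 libraries, 3 each of ABSC, ALSC and AFSC. The authors deposited raw read counts per gene; the submitters' processing notes list the aligner HISAT2 2.0.5, the counter featureCounts 1.5.0-p3 and the build mm9. The coordinates in the table match a GRCm38 annotation (GENCODE M21) for 43 of 43 members and are read as GRCm38. Entries that name no gene (0.208% to 0.227% of counts) were left out. Depth was 18978651 to 21578737 counts a library.

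The count model was edgeR 4.0.16 in R 4.3.3: filterByExpr (minimum count 10, minimum total 15), TMM scaling (factors 0.963 to 1.06), 1 robust quasi-likelihood fit of all 9 libraries, 2-sided F tests, and Benjamini-Hochberg adjustment over 16178 genes at 0.05. The statistics were tested on simulated data. Errors of means are SD (n = 3), and errors of log2 fold changes are SE. Alternatives were a library number block, DESeq2 1.42.0, RLE or library size scaling, other filters, fewer groups and left-out libraries. The numbers come from the sample titles. Deviations from group means of same-numbered libraries correlated at 0.464 to 0.554 for number 1, 0.197 to 0.287 for number 2 and 0.224 to 0.356 for number 3, all above 0.1. A fit that pairs libraries by number is given beside the main fit, which leaves the number out. Libraries 2 and 3 of different cell types correlated at 0.221 to 0.273, as much as libraries that share number 2 or 3, and library 1 with the others at -0.426 to -0.304, so the pairing sets library 1 apart and does not separate 2 from 3.

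Members and gene lists were chosen with earlier results of these data known. Every library is given for each member called in a comparison, for 8 key members, and for the highest and lowest fold change. Up to 4 called genes of each pathway list are named.

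Because strand is not marked, reads of 13 members that overlap another tested gene cannot be assigned with certainty.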

Additional observations from a re-analysis of the deposited data

Results flagged for a closer look

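The responses of 3 members to the ABSC and ALSC media, each against AFSC, differed by a direct edgeR test of the difference, which is the ABSC against ALSC contrast. Myc differed by 1.01 on the log2 scale (adjusted p = 0.000724), with 114 ± 11.2 CPM in ABSC and 56.5 ± 9.10 CPM in ALSC (SD, n = 3 each), and all 3 ABSC libraries lay above all 3 ALSC libraries. Ccnb2 differed by -0.35 (adjusted p = 0.0285), with 103 ± 6.44 CPM in ABSC and 131 ± 12.5 CPM in ALSC. Top2a differed by -0.23 (adjusted p = 0.0163), with 1064 ± 16.9 CPM in ABSC and 1251 ± 64.0 CPM in ALSC. For Ccnb2 and Top2a each ABSC library lay below each ALSC library. Of 17 other settings, the Myc call held in 17, the Ccnb2 call in 12 and the Top2a call in 13. Those of Ccnb2 and Top2a were lost when only these 2 groups were fitted. Passage moves with cell type here, and an RNA kit is named for ALSC beside another for all cells. Which kit each library received is not given. The part of passage or kit in these differences was not tested.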

How the results depend on the processing

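With the replicate block, the pairing by library number, members called higher or lower were 11 and 1 in ABSC against AFSC, 6 and 4 in ALSC against AFSC and 15 and 6 in ABSC against ALSC, among 3132, 3590 and 4605 genes. With it 23 members and 37.0% of all genes differed among cell types. Without the 3 libraries numbered 1 they were 18 and 4, 7 and 3, and 17 and 6, among 4622, 4122 and 5225 genes. There 30 members differed among cell types, and the share of all genes for that test was not computed. All calls of members without the block were kept with it. DESeq2 called 5 higher in ABSC against AFSC and 4 in ABSC against ALSC. For ABSC against ALSC, RLE scaling gave 2 higher, where 931 of 16178 genes were higher. No filter also gave 2 higher, where 879 of 32197 genes were higher. Library size alone gave 4 lower, where 1135 of 16178 genes were lower and 615 higher. The fit of these 2 groups alone gave 0 lower among 1041 genes. Leaving out single libraries gave 1 to 5 higher and 0 lower among 667 to 1723 genes in ABSC against AFSC, 0 to 3 higher and 1 to 2 lower among 345 to 1522 genes in ALSC against AFSC, and 1 to 4 higher and 0 to 3 lower among 846 to 2337 genes in ABSC against ALSC. It gave 3 to 7 members for cell type, for which no share of all genes was computed. For library number it gave 12 to 22 members, where 15.4% to 27.5% of all genes were called. The cause was not tested.

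Signs turned for members that lay near 0 and were not called. With library size alone, Ccnb1 was at -0.014 in ABSC against AFSC, and Pcna, Mycn and Cdk1 were at 0.044, 0.026 and 0.038 in ALSC against AFSC. In ALSC against AFSC, Pcna was at 0.00046 with no filter, 1.0e-05 at 1 CPM in 3 libraries and 0.0012 without the libraries numbered 1, where Mycn was at 0.0021 and Ccnb1 at -0.013. Ccnb1 in ABSC against ALSC was at 0.0040 by DESeq2 and by RLE, 0.0018 with no filter and 0.035 without the libraries numbered 1. Single left-out libraries gave -0.015 to 0.13 for Myc, -0.093 to 0.13 for Ccnb1 and -0.0061 to 0.11 for Ccnb2 in ABSC against AFSC. They gave -0.039 to 0.036 for Pcna, -0.16 to 0.14 for Mycn, -0.096 to 0.096 for Ccnb1 and -0.081 to 0.034 for Cdk1 in ALSC against AFSC, and -0.081 to 0.11 for Ccnb1 in ABSC against ALSC. With 3 libraries a group, members that were not called are not shown to be equal.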

Other observations

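Genes that guard replication forks were also tested. Of 20 replication stress genes, 2 rose and 0 fell in ABSC against AFSC, Rmi2, a partner of the Bloom helicase complex, with ABSC at 24.8 ± 4.07 CPM against AFSC at 14.6 ± 2.31 CPM, and Chek1, the checkpoint kinase, with ABSC at 68.2 ± 4.70 CPM against AFSC at 55.7 ± 1.86 CPM (SD, n = 3 each). The log2 fold changes were 0.77 and 0.29 (edgeR adjusted p = 0.0159 and 0.0320). In ALSC against AFSC, 1 rose, Brca2 (0.42, adjusted p = 0.0235). In ABSC against ALSC, Rmi2 rose (0.67) and Fancd2 fell (-0.21). Adding the term for library number, 3 of the 20 were called higher and 2 lower in ABSC against AFSC, 7 and 0 in ALSC against AFSC, where 11.1% of all genes were higher and 11.1% lower, and 2 and 4 in ABSC against ALSC. Of 11 histone genes with polyadenylated transcripts tested, 1 rose in ALSC against AFSC, H2afz, with ALSC at 806 ± 4.47 CPM against AFSC at 671 ± 42.0 CPM. Adding the term, 2 of the 11 were called higher and 1 lower in ABSC against AFSC, 4 and 1 in ALSC against AFSC, and 0 and 1 in ABSC against ALSC. Among cyclin-dependent kinase inhibitors, Cdkn2b fell in ALSC against AFSC, with ALSC at 1.07 ± 0.110 CPM against AFSC at 2.21 ± 0.217 CPM. Between ABSC and ALSC, Cdkn2b rose in ABSC (1.29, edgeR adjusted p = 0.00982) and Cdkn1c fell there (-0.94, adjusted p = 0.0274), and the Cdkn1c call was lost with the term (adjusted p = 0.0907). Adding the term, 0 of the 6 inhibitors tested were called higher and 1 lower in ABSC against AFSC, 1 and 3 in ALSC against AFSC, and 1 and 1 in ABSC against ALSC. For these lists too, the shares of all genes called by each test are those given above for the members.

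Library number was also tested in the other lists. By the edgeR F test, 16 of 45 other replication genes differed with it, 14 of them lower in library 1. So did 20 of 66 other mitosis genes, 17 lower, and 7 of 18 E2F regulators, all 7 lower, where 25.4% of all genes differed with the number, 12.0% called and lower and 13.4% called and higher. Of 22 other nucleotide genes 8 differed, 6 lower and 2 higher, and of 20 replication stress genes 6 did, 4 lower and 2 higher. Of 10 MYC network genes 3 differed, 1 lower and 2 higher, and of 11 histone genes 5 did, 2 lower and 3 higher. Of the 5 trophoblast stem cell markers tested 3 differed, 2 lower and 1 higher, with a median log2 difference of -0.97. Their list summed to 160 CPM in ALSC 1, 296 CPM in ALSC 2 and 289 CPM in ALSC 3. Of 7 pluripotent and epiblast markers 1 differed, lower, and of 7 fibroblast markers tested 1 did, higher. Of the 6 cyclin-dependent kinase inhibitors tested 2 differed, 1 lower and 1 higher, and the median log2 difference of the 6 was -0.02. Cdkn1a and Cdkn1b moved in opposite directions, by -0.47 and 0.51 on the log2 scale in library 1 against libraries 2 and 3.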
